A study of Danio rerio with 40 samples.

Results

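Cytosolic ribosomal proteins are the protein parts of the ribosome that works in the cytosol. Their genes were taken as all genes of the count table whose symbol begins with rpl or rps as ribosomal protein symbols do, rplp and rpsa included. Of 96 genes that matched, 12 were dropped as rps6k kinases or rps19bp1, which leaves 84 of the 32057 genes counted. They comprise 37 genes of the small subunit, 43 of the large subunit and 4 of the P stalk. Genes that carry the same symbol are given with their Ensembl ID, and paralogs such as rpl22l1, rps27l and rplp2l were kept. The symbol table writes some names in human form, so that rps4y2, rpsa2 and rpl36al stand here for the genes it names that way. Of the 84 genes, 83 had enough counts to be tested. The exception was rpl26, with a mean of 1.25 counts, at most 5 in any library and no count in 12 libraries.

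Every ribosome holds one copy of nearly every ribosomal protein, and cells make them in matched amounts. Most of their mRNAs start with a 5′ terminal oligopyrimidine (TOP) tract, which lets the growth kinase complex mTORC1 and the RNA-binding protein LARP1 set their translation and stability together. The same tract is carried by mRNAs of elongation factors and of several other translation proteins. Mitochondria have ribosomes of their own, whose proteins come from a separate set of nuclear genes. In the brain, ribosome content is tied to growth, to proliferation of progenitors and to protein synthesis in neurons and glia.

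The counts come from whole brains of 40 zebrafish aged 6 months, all siblings, and polyA RNA was sequenced. Homozygous fish carried the frameshift allele A603fs of naglu on both chromosomes and heterozygous fish on one, so the controls carry the allele too. This gene encodes a lysosomal enzyme of heparan sulfate breakdown, and its loss causes mucopolysaccharidosis type IIIB in humans. Each fish was injected into the body cavity with 10 µg ferric citrate (iron) or with the 0.85% saline that carried it, and was sampled 7 days later. The 4 groups of 10 were homozygous iron, homozygous saline, heterozygous iron and heterozygous saline, with 5, 7, 5 and 2 females. Females made up 19 fish and males 21. The labels also give 1 of 5 home tanks and a number for each fish, whose meaning no source states. One fish gave one library, and a replicate number is only a name.

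The libraries held 11772789 to 38516546 counts each (median 26889029), of which 246952 to 905347 fell on ribosomal protein genes. Brain identity was clear: counts of the neuronal gene snap25 (ENSDARG00000020609) ran from 35252 to 160927 and of the myelin gene mbpa from 104710 to 666249. The naglu transcript itself does not check the genotype labels, with a median of 3.69 CPM (counts scaled by the TMM-adjusted library total) in homozygous fish and 3.57 in heterozygous fish. On a score of 50 genes that separate the genotypes, 0 for heterozygous and 1 for homozygous, 2 labelled heterozygous, saline 5 and iron 5, lay between 1.08 and 1.18. The 20 homozygous libraries ran from 0.608 to 1.31 and the other 18 heterozygous ones from -0.567 to 0.288. Several counts and medians below are also given without these libraries.

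Ribosomal protein genes took a larger share of the counts in female than in male brains. The share ran from 2.19% to 3.23% in the 19 females, with a median of 2.60%, and from 1.70% to 2.42% in the 21 males, with a median of 2.18%. The sexes overlapped, but 15 of the 19 females lay above the highest male and 11 of the 21 males lay below the lowest female. The difference had the same direction in each of the 4 groups. Mean shares in females and males were 2.44% ± 0.244 and 2.24% ± 0.163 after iron in homozygous fish (SD, n = 5 and 5) and 2.74% ± 0.333 and 2.27% ± 0.129 after saline (n = 7 and 3). In heterozygous fish they were 2.64% ± 0.268 and 2.11% ± 0.194 after iron (n = 5 and 5) and 2.68% ± 0.0782 and 2.02% ± 0.182 after saline (n = 2 and 8). In whole brains, a change in RNA per cell and a change in the number of cells that express more of it cannot be told apart. The share of mitochondrial ribosomal proteins had medians of 0.172% in females and 0.168% in males.

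**Figure D1:**
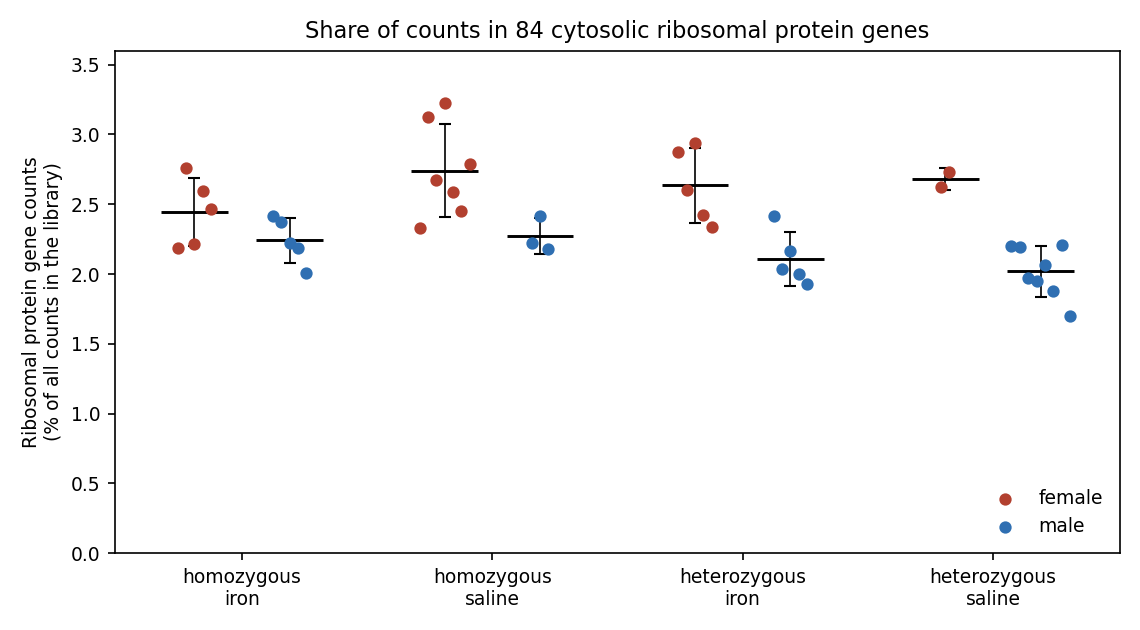
Share of all counts held by the 84 cytosolic ribosomal protein genes (percent, y axis) in each library, by group and sex. Points are fish, bars the mean and whiskers 1 SD; the mean of females is above that of males in all 4 groups.

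Gene by gene, the sex comparison asked which members differ between female and male brains when group and home tank are held constant. It called 73 of the 83 members higher in females and 0 lower (edgeR's quasi-likelihood test, Benjamini-Hochberg adjusted p under 0.05 over 19668 genes). Over all genes tested, 1.71% were called higher in females and 0.722% lower. Members made up 73 of the 337 genes called higher. The log2 fold change of female over male was positive for 82 of 83 members, with a median of 0.255, a fold of 1.19, where the median over all genes was 0.001. The small and large subunit did not stand apart. Calls were made for 33 of 37 small subunit genes, with a median of 0.26, for 36 of 42 large subunit genes, with a median of 0.251, and for all 4 stalk genes.

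**Figure D2:**
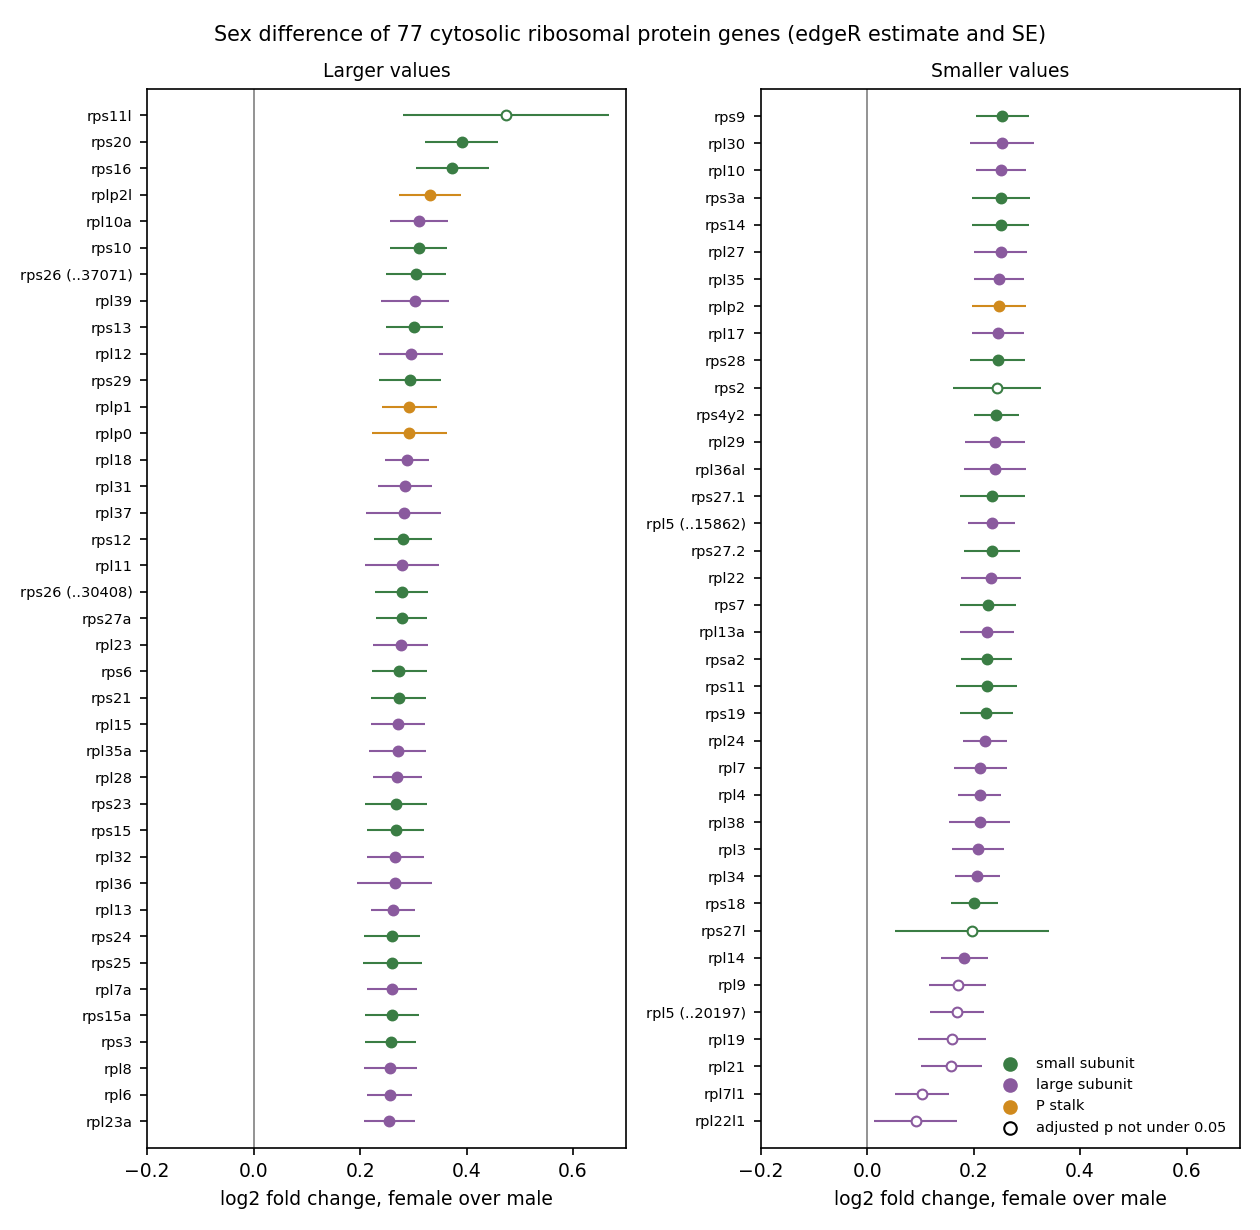
Log2 fold change of female over male brains (x axis) with its SE for 77 of the tested members, sorted by size and split over 2 panels, coloured by subunit. Filled points passed the adjusted threshold, and all values drawn lie to the right of 0.

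In the small subunit, rps6, whose protein is phosphorylated by S6 kinase when mTORC1 is active, had 388.3 to 625.8 CPM in females (median 494.0) and 323.7 to 470.0 in males (median 405.9). The log2 fold change was 0.27 (SE 0.05, adjusted p = 0.00208). Here 17 of 19 females were above the male median and all 21 males were below the female median. The gene rps27a, which encodes ubiquitin fused to a ribosomal protein, had a median of 320.5 CPM in females and 270.7 in males (log2 fold change 0.28, SE 0.05, adjusted p = 0.00121). For rps10, rps13 and rps4y2, a gene of the RPS4 family, the log2 fold change was 0.31, 0.30 and 0.24, each with an adjusted p of at most 0.00134. The largest called values were those of rps20, with 149.8 to 256.4 CPM in females against 103.5 to 185.2 in males and a log2 fold change of 0.39 (SE 0.07), and of rps16 with 0.37 (SE 0.07). Near the lower end were rps19, the gene most often mutated in human Diamond-Blackfan anaemia, with 0.22 (SE 0.05, adjusted p = 0.0103), and rpsa2, of the laminin receptor family, with 0.22 (SE 0.05, adjusted p = 0.0072). The genes rps3, at the mRNA entry, and rps14, whose loss in humans underlies the anaemia of the 5q- syndrome, had 0.26 and 0.25.

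In the large subunit, rpl18 had the smallest p of all members. It had 236.0 to 369.7 CPM in females (median 302.1) and 195.8 to 278.5 in males (median 242.6), so the ranges overlapped while 18 of 19 females lay above the male median. Its log2 fold change was 0.29 (SE 0.04, adjusted p = 0.000229). Next came rpl13 with 0.26 (SE 0.04, adjusted p = 0.000639), rpl6 with 0.26 (SE 0.04, adjusted p = 0.00109), rpl28 with 0.27 (SE 0.05) and rpl10a with 0.31 (SE 0.05). For rpl13 and rpl6, all 19 females were above the male median and all 21 males below the female median. The genes rpl5 and rpl11 encode the proteins that carry 5S rRNA into the ribosome and, when free, bind Mdm2 in mammals. The log2 fold change was 0.28 (SE 0.07, adjusted p = 0.0233) for rpl11, 0.23 (SE 0.04, adjusted p = 0.00225) for rpl5 (ENSDARG00000015862) and 0.17 (SE 0.05, adjusted p = 0.0653) for rpl5 (ENSDARG00000020197), which was not called. Both rpl3, close to the peptidyl transferase centre, with 0.21 (SE 0.05), and rpl10, which joins late in assembly, with 0.25 (SE 0.05), were higher in females. The same held for rpl13a with 0.23 (SE 0.05), for rpl22, an RNA-binding protein gene, with 0.23 (SE 0.06) and for rpl38, which in mouse embryos is needed for translation of some Hox mRNAs, with 0.21 (SE 0.06, adjusted p = 0.0399), the largest adjusted p among the called members. The symbol rpl41 matched no gene in the table.

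The stalk genes encode the acidic P proteins, which recruit elongation factors to the ribosome. The anchor gene rplp0 had 672.3 to 1176 CPM in females (median 917.1) and 537.6 to 944.8 in males (median 719.3). The log2 fold change was 0.29 (SE 0.07, adjusted p = 0.0177). Its ranges overlapped widely. For rplp1 the median was 393.0 CPM in females and 321.0 in males (log2 fold change 0.29, SE 0.05, adjusted p = 0.00134). For rplp2 it was 204.5 and 169.6 CPM (0.25, SE 0.05), and for the paralog rplp2l 233.1 and 188.8 CPM (0.33, SE 0.06).

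The 10 members that were not called in the sex comparison included several paralogs. Among them were rpl22l1 (0.09, SE 0.08), which in mammals replaces rpl22 in part of the ribosomes, rps27l (0.20, SE 0.14) and rpl7l1 (0.10, SE 0.05). The median of rpl22l1 was 55.88 CPM in females and 48.57 in males, that of rps27l 10.08 and 7.803, and that of rpl7l1 15.75 and 14.73, with ranges that overlapped between the sexes for each of these genes. Also not called were rpl9, rpl19, rpl21, rps2, rpl5 (ENSDARG00000020197) and rps11l, with log2 fold changes from 0.16 to 0.47 and an unadjusted p under 0.05 each. The gene rps11l was the most thinly counted of the tested members, at 0.770 CPM in females and 0.531 in males (medians).

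Ratios within a library compare paralogs without regard to library scaling. For 10 pairs the log2 ratio was compared between sexes by permuting sex within the 4 groups (100000 permutations, two-sided, Benjamini-Hochberg over the 10 pairs). The log2 ratio of rplp2l to rplp2 averaged 0.262 ± 0.085 in females (SD, n = 19) and 0.149 ± 0.085 in males (n = 21). With each ratio centred on its group mean, the female minus male difference was 0.074 (permutation p = 0.0027, adjusted p = 0.0135). The ratio of rpl22l1 to rpl22 did not pass (difference of centred ratios -0.121, adjusted p = 0.06), nor did the ratios of the rpl5 copies, the rps26 copies and rps27.1 to rps27.2. How reads of near-identical copies were divided is not given, so the ratios of such pairs carry that uncertainty.

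Members moved together across the 40 libraries. The first principal component of their log2 CPM held 83.5% of the variance, and 82 of 83 members had the same sign on it. Each gene's Pearson r with the mean of the other members had a median of 0.96 over 40 libraries, was at least 0.9 for 74 genes and under 0.7 for 4. Among the lowest were rps11l with 0.53, rpl19 with 0.67 and rpl7l1 with 0.69. These values describe libraries that share sex, genotype and depth differences. Because members moved together, counts of members by sign or by p, here and below, are not counts of independent tests. The SD of log2 CPM over all libraries was among the smallest for rpl7l1 (0.151), rpl4 (0.160), rpl14 (0.164) and rpl34 (0.166). It was largest for rps11l (0.528), rps27l (0.455), rps20 (0.312), rps2 (0.300) and rps16 (0.280).

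Outside the symbol rule, the genes most like the members' mean over the 40 libraries were named by Pearson r. They were fau (0.97), which encodes a ubiquitin-like protein fused to a ribosomal protein, si:dkey-151g10.6 (0.96), for which RefSeq lists rpl41 as a synonym, and rack1 (0.96), a scaffold on the small subunit. After them came the initiation factor subunit eif3m (0.95), naca (0.93) and btf3 (0.92) of the nascent chain complex, nme1 (0.93), zgc:171772 (0.93), eef1b2 (0.92) and eif3f (0.92). Their log2 fold changes of female over male ran from 0.17 to 0.32, which the choice by likeness to a mean that differs between the sexes largely fixes. Of 4 ribosomal or ribosome-bound protein genes outside the rule, rack1 rose by 0.30 (SE 0.05, adjusted p = 0.000639) and fau by 0.24 (SE 0.05, adjusted p = 0.00496). The value was -0.02 (SE 0.04, adjusted p = 0.852) for faub, the paralog of fau.

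Lists of related genes were counted beside the members. Their counts are read against 1.71% of all genes called higher in females and 0.722% called lower. None of 75 mitochondrial ribosomal protein genes was called in the sex comparison, which is near that background. Their median log2 fold change was 0.003. An unadjusted p under 0.05 was found for 3 of them, a lower share than the 3543 of all 19668 genes with such a p. Of 33 elongation factors and other mRNAs known to carry a TOP tract, 13 rose in females and 0 fell, with a median of 0.156. They included eef1g (0.28, SE 0.05), eif3h (ENSDARG00000102452) with 0.25 (SE 0.04), naca (0.20, SE 0.03) and eif3m (0.22, SE 0.04). Initiation factors had 4 of 32 genes higher, all subunits of eIF3 (eif3i, eif3b with the ID ENSDARG00000059654, eif3d and eif3g, 0.14 to 0.20), and a median of 0.049. Other genes with the symbols eif3b (ENSDARG00000074213) and eif3h (ENSDARG00000036116) had -0.62 (SE 0.31) and -0.02 (SE 0.04), and neither was called. Ribosome biogenesis genes had 6 of 77 higher, led by rsl1d1 (0.27, SE 0.05), the nucleolar helicase gene ddx21 (0.30, SE 0.06), nop56 (0.13, SE 0.03) and rsl24d1 (0.17, SE 0.04), and a median of 0.054. Of 33 regulators of TOP translation and growth, 2 were higher and 0 lower, with a median of 0.016. Values were positive for 17 of them and negative for 16. The 2 called were eif4ebp3 (ENSDARG00000041607), which encodes a repressor of cap-dependent translation, by 0.89 (SE 0.17, adjusted p = 0.00282), and mych, a fish member of the myc family, by 0.42 (SE 0.09, adjusted p = 0.0112). A second eif4ebp3 gene (ENSDARG00000054916) had 0.27 (SE 0.10, adjusted p = 0.145) and was not called. Among the negative values, none called, were rictor (ENSDARG00000002020) with -0.14 (SE 0.04, adjusted p = 0.0611) and rictor (ENSDARG00000100867) with -0.15 (SE 0.04, adjusted p = 0.0637). Others were rptor with -0.11 (SE 0.03, adjusted p = 0.0824) and mtor with -0.11 (SE 0.05, adjusted p = 0.184). So were tsc2 with -0.14 (SE 0.05, adjusted p = 0.152) and rps6ka1 with -0.11 (SE 0.04, adjusted p = 0.182). Positive values that were not called included rps6kb1b with 0.11 (SE 0.03, adjusted p = 0.0745) and eif4ebp1 with 0.09 (SE 0.03, adjusted p = 0.1275).

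**Figure D3:**
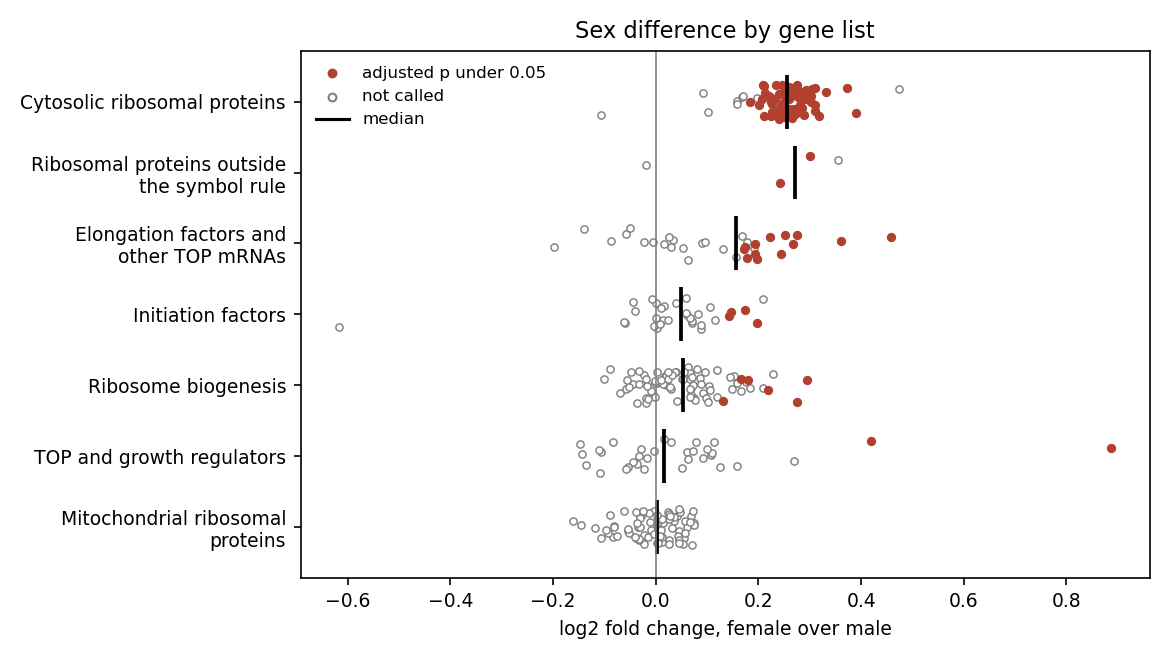
Log2 fold change of female over male brains (x axis) of each tested gene in 7 lists (rows); bars are list medians and filled points passed the adjusted threshold. Cytosolic ribosomal proteins have a median of 0.255 and mitochondrial ribosomal proteins one of 0.003.

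Markers of several cell types leaned to one sex, and library totals differed. Summed CPM of marker lists, here and below, use plain library totals without TMM factors. All 12 tested markers of microglia and macrophages had a positive log2 fold change, with a median of 0.486 and none called, while the 13 markers of that list summed to a level from 382.1 to 1131 CPM in females (median 592.8) and from 211.6 to 858.1 in males (median 545.3). All 12 markers of proliferating cells were positive too, with a median of 0.244 and 2 called (mcm7 and pcna), and summed to a median of 141.7 CPM in females and 120.7 in males. For radial glia and astroglia 9 of 10 were positive, 1 was called (fabp7, ENSDARG00000007697), and the sums ran from 5907 to 8302 CPM in females and from 2307 to 8216 in males. Neuronal markers had a median of -0.079 with none of 15 called, and oligodendrocyte markers one of -0.103. Of the 10 oligodendrocyte markers, cnp alone was called, and it was higher in females (0.20). The other marker lists (erythrocytes, lymphocytes, endothelium, photoreceptors, pituitary, muscle and ependyma) held 0 calls, and their medians ran from -0.053 to 0.615. No marker list had a gene at 0 in all libraries. Library totals had a median of 21980000 counts in females and 30400000 in males. With the log2 library total as a further term, 65 of the 73 members stayed called and the median was 0.240. The share of all genes called in that fit is not given. The part of the cell type markers in the sex difference was not tested.

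Within each genotype the sex difference was estimated from a fit with a sex by genotype term. In homozygous fish 0 of 83 members were called, against 0.00508% of all genes called higher. The median log2 fold change was 0.192 and 63 members had an unadjusted p under 0.05, against 8.15% of all genes. Among the members with the smallest p were rpl18 (0.22, SE 0.06, adjusted p = 0.234), rpl13 (0.22) and rpl31 (0.25), and none of these passed. In heterozygous fish 66 members were called, all of them higher, where 1.2% of all genes were called and 1.06% were called higher, and the median was 0.331. Among the smallest p there were those of rpl18 (0.37), rpl10a (0.44), rps27a (0.36), rpl23 (0.38), rps10 (0.40), rpl5 (ENSDARG00000015862) with 0.33, rpl6 (0.32), rplp2l (0.44), rpl13 (0.31), rps20 (0.50) and rpl7a (0.34).

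The test of the difference itself, female over male in homozygous minus the same in heterozygous fish, called 0 of 83 members and 0.0% of all genes. At an unadjusted p under 0.05 it held 5 members, against 5.11% of all genes, and 81 of 83 values were negative, with a median of -0.137. With fish number above 40 as a further term, 34 members had an unadjusted p under 0.05 and the median was -0.188 with 0 values positive. Again 0 members and 0 genes in all were called. The share of all genes at that p is not given for this fit. Without heterozygous saline 5 and heterozygous iron 5 the median was -0.101, with 2 members at an unadjusted p under 0.05, against 5 with all fish. The smallest p was that of rpl9, with -0.29 (SE 0.10, adjusted p = 0.943): its log2 fold change was 0.03 (SE 0.07) in homozygous and 0.32 (SE 0.07) in heterozygous fish. Also low in p were rpl14 (-0.21), rpl10a (-0.24) and rpl5 (ENSDARG00000015862) with -0.18. The heterozygous count leaned on single fish. It was 2 without heterozygous iron 5, 14 without heterozygous iron 4, 34 without heterozygous saline 7, 38 without heterozygous saline 8, 42 without heterozygous iron 10 and 7 without both heterozygous saline 5 and heterozygous iron 5. Calls over all genes fell too: the genes called higher numbered 9, 51, 90, 112 and 186 without heterozygous iron 5, iron 4, saline 7, saline 8 and iron 10, and 16 without the pair, against 209 with all fish. Without heterozygous iron 5, and likewise without heterozygous iron 4, 76 members had an unadjusted p under 0.05 and 82 values were positive. With all fish these were 77 and 82, where 15.4% of all genes had such a p. Members moved together over the libraries, so these counts are not separate evidence beside the median. Without the pair the members' median was 0.302. Only 7 females are heterozygous, and heterozygous iron 5 is one of them, with a ribosomal protein share of 2.94%, the highest among the heterozygous fish.

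The genotype comparison asked whether loss of naglu changes ribosomal protein genes. It called 0 of 83 members, where 4.31% of all genes were called, 2.03% higher and 2.28% lower. Homozygous over heterozygous, the members' median log2 fold change was 0.075, 78 of 83 values were positive, and 9 members had an unadjusted p under 0.05, against 19.7% of all genes. The gene rpl22l1 had 42.24 to 83.47 CPM in homozygous fish (median 57.53) and 40.88 to 81.93 in heterozygous fish (median 47.42). The ranges overlapped, and the log2 fold change was 0.19 (SE 0.08, adjusted p = 0.157). Next were rplp2l (0.14, SE 0.06), rps4y2 (0.10, SE 0.04) and rpl22 (0.13, SE 0.06), none of which passed. Without heterozygous saline 5 and heterozygous iron 5, 42 members had an unadjusted p under 0.05 and the median was 0.113. There 4 of 83 members were called higher, among them rplp2l (0.20), rps4y2 (0.13) and rplp1 (0.16), a share near that of all genes in the same fit, of which 4.53% were called higher. Without heterozygous iron 5 alone, 33 members had an unadjusted p under 0.05 and 1 was called, where 799 genes in all were called higher. Both of these fits called more genes higher over all genes than the fit with all fish. Their shares of all genes at an unadjusted p under 0.05 are not given. In males alone the median was 0.125 and in females alone 0.046. Heterozygous saline 5 and heterozygous iron 5 were left out for their place on a genotype score made from the same libraries. Leaving out heterozygous libraries that resemble homozygous ones tends to widen genotype differences. Genotype fits without them, here and below, are therefore no independent support for a genotype difference. Of the related lists, genotype called nop2 (0.17) of 77 ribosome biogenesis genes, eef2a.1 (0.18) and vim (ENSDARG00000010008) with -0.51 of 33 TOP mRNAs and eif1b (0.22) of 32 initiation factors. Among markers 8 of 10 of oligodendrocytes were lower in homozygous fish and 3 of 12 of proliferating cells higher, and their part in the members' values was not tested.

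After saline alone, 0 of 83 members were called between the genotypes, against 0.569% of all genes called higher and 0.681% lower. The median was 0.131 and 82 of 83 values were positive, with 17 members at an unadjusted p under 0.05, against 15.3% of all genes. The gene rpl22l1 had 51.46 to 83.47 CPM in homozygous saline fish (median 57.29) and 42.85 to 56.35 in heterozygous saline fish (median 46.63). These ranges overlapped little, and the log2 fold change was 0.37 (SE 0.11, adjusted p = 0.0914), which did not pass. Without heterozygous saline 5 and heterozygous iron 5 it was 0.40 (SE 0.11, adjusted p = 0.0461), and 46 members had an unadjusted p under 0.05 with a median of 0.162. This 1 called member of 83 stood beside 1.51% of all genes called higher and 1.46% lower in that fit, both above the shares with all fish. The share of all genes at an unadjusted p under 0.05 is not given for that fit. Its 2 left-out libraries were picked by a genotype score of these data, which tends to widen genotype differences. The call of rpl22l1 there is no independent support. Also low in p were rpl19 (0.24, SE 0.09), rpl15 (0.19, SE 0.07) and rplp2l (0.22, SE 0.08). Among cell type markers after saline, 7 of 12 of microglia and macrophages and 9 of 12 of proliferating cells had an unadjusted p under 0.05 with medians of 0.704 and 0.489, and 1 marker of proliferating cells was called higher. Oligodendrocyte markers had a median of -0.509, and 4 of 10 were called lower. Their part in the members' values was not tested.

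After iron, the genotypes differed by a median of 0.018, with 56 of 83 values positive and 0 members called, against 0.0661% of all genes called higher and 0.0712% lower. No member reached an unadjusted p under 0.05, against 8.32% of all genes. Among the smallest p were those of rpl7 (-0.09, SE 0.07), rpl13a (-0.08), rpl22 (0.09) and rps4y2 (0.06). The median moved with the libraries used. It was 0.068 with 72 positive values without heterozygous saline 5 and heterozygous iron 5, 0.116 with 79 positive in males, -0.055 with 15 positive in females and -0.011 with 37 positive in fish up to 40. It was -0.028 without homozygous iron 4 and -0.003 without heterozygous iron 8. No member was called in these fits.

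Iron itself called 0 of 83 members and 0.0% of all genes in either genotype. In homozygous fish the log2 fold change of iron over saline had a median of -0.086, and 82 of 83 values were negative. The members with the smallest p were rpl10a (-0.14, SE 0.08), rpl13a (-0.13), rpl7 (-0.12), rps20 (-0.16) and rpl18 (-0.10), and no member reached an unadjusted p under 0.05, against 1.46% of all genes. The sign of the median was not kept in males, where it was 0.008 with 47 of 83 values positive, while in females it was -0.108 with 2 positive. In heterozygous fish the median was 0.028 and 73 values were positive, against 0.014 and 60 without heterozygous saline 5 and heterozygous iron 5. Without heterozygous saline 10, the library with the lowest ribosomal protein share, it was -0.010 with 25 positive, without heterozygous iron 2 it was -0.005, and in fish above 40 it was -0.025 with 21 positive, so no direction is given. In the fit over all fish there was 1 member, rpl19 (0.18, SE 0.09), at an unadjusted p under 0.05, against 3.37% of all genes. It was followed by rpl22l1 (0.18, SE 0.11), rpl21 (0.11), rps2 (0.15) and rpl5 (ENSDARG00000020197) with 0.08. The highest heterozygous iron values were 81.93 CPM for rpl22l1 (group median 52.42) and 607.0 CPM for rpl21 (group median 398.0), each in a male. Such values enter every rpl22l1 or rpl21 result that uses those fish. In fish above 40 the log2 fold changes were -0.052 for rpl22l1 and -0.033 for rpl21. The lowest rpl19 value, 226.5 CPM, was that of a heterozygous saline female. The lowest was 334.5 CPM in males and 389.3 CPM in homozygous fish. That library enters every rpl19 value that uses heterozygous saline fish. The difference between the iron effects, homozygous minus heterozygous, had a median of -0.118 with 82 of 83 values negative, called 0 members and 0.0% of all genes. In males alone its median was -0.024 and in females alone -0.158. It held 1 member at an unadjusted p under 0.05, rpl22l1 (-0.35, SE 0.16, adjusted p = 1.00), against 2.53% of all genes, followed by rpl19 (-0.25), rps2 (-0.30), rpl7 (-0.16) and rps27.1 (-0.20). These comparisons share libraries, so their medians are not independent of each other. Members moved together as well, so the counts of negative or positive values are not separate evidence.

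**Figure D4:**
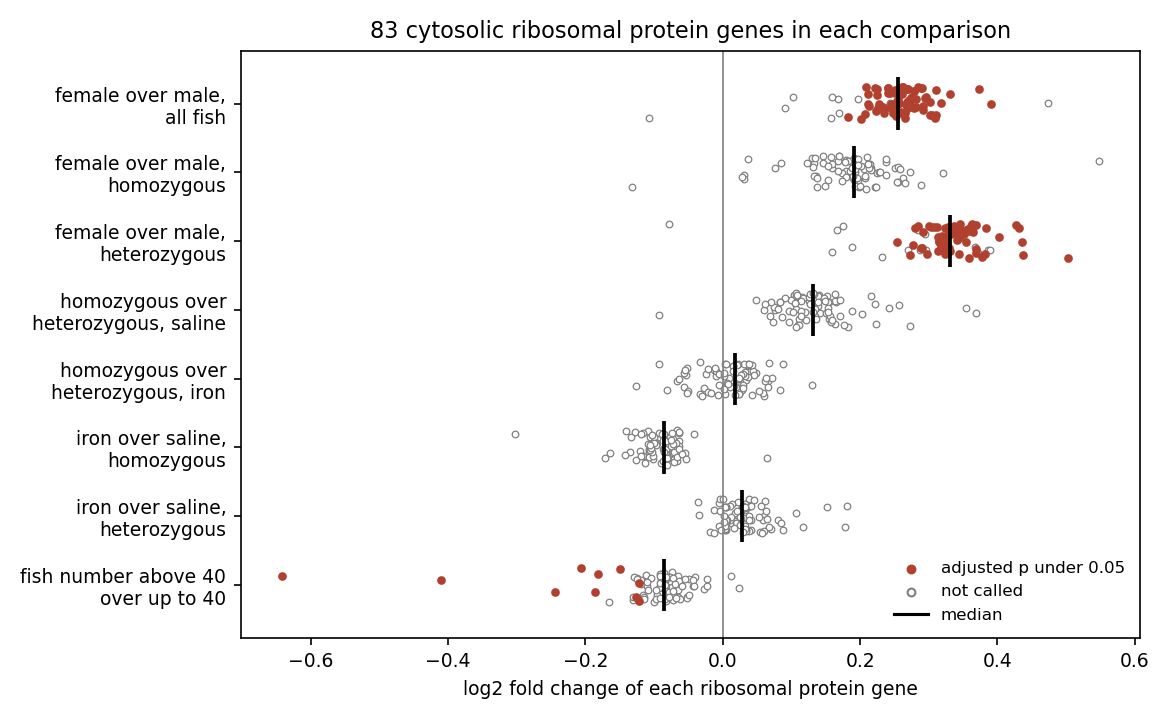
Log2 fold change (x axis) of each of the 83 tested members in 8 comparisons (rows), with the median as a bar and genes past the adjusted threshold filled. Calls occur for sex over all fish (73), for sex in heterozygous fish (66) and for fish number (10).

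Fish number, which the labels give as each fish's title, was compared as the 20 fish above 40 over the 20 up to 40. Of 83 members, 10 were called lower in fish above 40 and 0 higher, where 10.6% of all genes were called lower and 10.8% higher. The share of members called lower, 12.0%, was near that background. The median log2 fold change was -0.085, against -0.009 over all genes, and 81 of 83 values were negative. The share of counts in ribosomal protein genes was 1.70% to 2.79% in fish above 40 (median 2.22%) and 1.95% to 3.23% in fish up to 40 (median 2.40%).

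**Figure D5:**
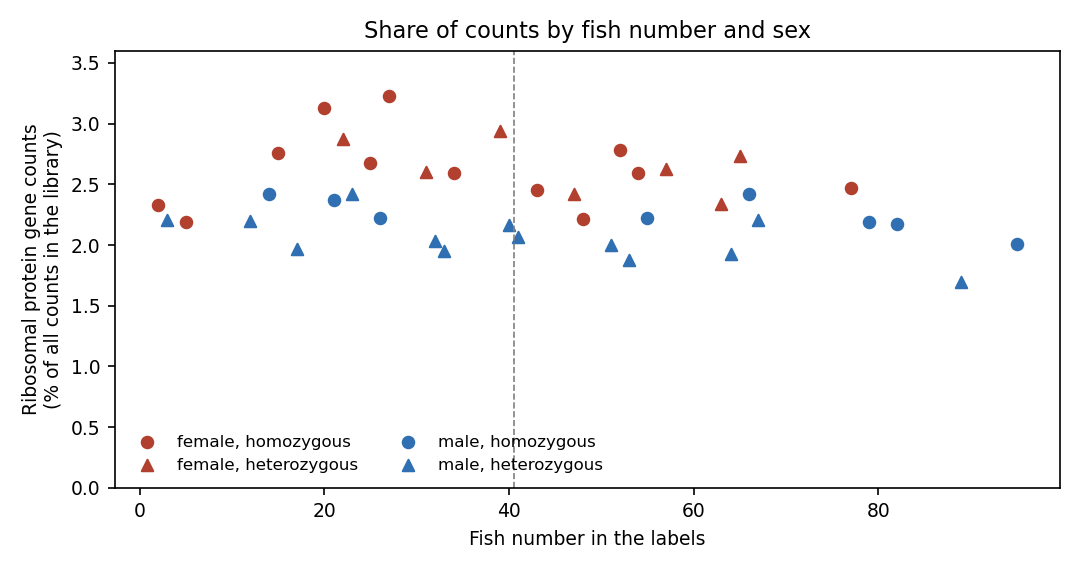
Share of all counts held by the 84 cytosolic ribosomal protein genes (percent, y axis) against the fish number in the labels (x axis), by sex and genotype; the dashed line separates numbers above 40 from those up to 40. Females lie mostly above males on both sides of the line.

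The called members were rps11l, rps2, rpl36, rps27l, rpl35, rpl11, rplp0, rpl12, rpl7 and rpl13a. The gene rps2, whose protein lies at the mRNA entry, had 518.9 to 1092 CPM in fish above 40 (median 800.4) and 705.7 to 1359 in fish up to 40 (median 974.2), and its log2 fold change was -0.24 (SE 0.07, adjusted p = 0.00879). For rps27l the range was 4.18 to 15.5 CPM above 40 (median 7.37) and 6.04 to 15.4 up to 40 (median 11), and its log2 fold change was -0.41 (SE 0.12, adjusted p = 0.0169). Both pairs of ranges overlapped. The largest value, -0.64 (SE 0.15, adjusted p = 0.00321), was that of the thinly counted rps11l, with a median of 0.523 CPM above 40 and 0.797 up to 40. The others called were rpl36 (-0.21, SE 0.06), rpl11 (-0.19, SE 0.06), rplp0 (-0.18, SE 0.06), rpl12 (-0.15, SE 0.05), rpl35 (-0.13, SE 0.04), rpl7 (-0.12, SE 0.04) and rpl13a (-0.12, SE 0.04). Values for rpl7l1 (0.01, SE 0.05) and rps27a (-0.02, SE 0.05) did not pass.

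None of the 10 calls was made with the log2 library total as a further term, where the median was -0.075 and 5.15% of all genes were called lower. Library totals had a median of 29580000 counts above 40 and 20780000 up to 40. In males alone the median was -0.142 with 0 calls and 52 members at an unadjusted p under 0.05, where 1.05% of all genes were called lower. In females alone it was -0.052 with 0 calls and 3 such members, where 2.71% of all genes were called lower. The share of all genes at an unadjusted p under 0.05 is not given for either sex alone. Single libraries also moved the count, which ran from 5 to 26, and 5 of the 10 genes were called in every one of the 40 fits with 1 library left out (rps11l, rps2, rpl36, rps27l and rpl35). It was 26 without homozygous saline 1 and 23 without homozygous iron 1, where 2080 and 2040 genes in all were called lower, against 2080 with every library, so that the members' share was then well above that of all genes. It was 5 without heterozygous saline 1 or heterozygous saline 2 and 6 without heterozygous iron 9, where 1934, 1642 and 2059 genes in all were called lower. Leaving out any one of homozygous saline 3, 6 or 10, homozygous iron 9, heterozygous iron 3, 4 or 7, or heterozygous saline 3, 4, 5, 7, 8 or 9 gave 16 to 19. In those fits 2044 (without heterozygous iron 7) to 2574 (without homozygous iron 9) genes in all were called lower.

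Neither among the lower nor among the higher numbers was a member called. For fish 23-40 over 2-22 the median was 0.014 with 54 of 83 values positive, but it was -0.068 with 5 positive in males, 0.075 with 78 positive in females and -0.003 with 39 positive without heterozygous saline 5 and heterozygous iron 5, so no direction is given. In that comparison 0.0% of all genes were called, and among the smallest p were those of rps14 (0.09, SE 0.08), rps27.1 (-0.08), rps23 (0.08) and rps2 (-0.09). For fish 63-95 over 41-57 the median was -0.020 with 21 values positive, and 0.006 with 51 positive without heterozygous saline 10. Here 0.0763% of all genes were called, 0.0153% higher and 0.061% lower, and rps27l (-0.36, SE 0.17, adjusted p = 1.00) had the smallest p, and also low in p were rpl7l1 (-0.08), rps2 (0.11) and rpl19 (0.08). Median shares of counts over the 4 bands of 10 fish, from low to high numbers, were 2.35%, 2.50%, 2.32% and 2.20%.

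Lists of related genes are read against the same background, 10.8% of all genes called higher above 40, 10.6% lower and 21.4% in either direction. Of 77 ribosome biogenesis genes 19 were higher above 40 and 1, gnl3, was lower, with a median of 0.073. The smallest p were those of bxdc2 (0.26, SE 0.05), bop1 (0.25, SE 0.04), rrp12 (0.19, SE 0.03) and nat10 (0.20, SE 0.04). Mitochondrial ribosomal protein genes had 5 of 75 higher, among them mrpl37 (0.13), mrpl13 (0.16), mrpl38 (0.14) and mrpl41 (0.17), a share below that background, and a median of 0.049. Elongation factors and other TOP mRNAs, with a share near that background, had 5 higher and 2 lower of 33 with a median of -0.007, led by hnrnpa1a (0.17), eef1da (-0.31), eef2a.2 (0.27) and eif4b (0.10). Initiation factors had 7 higher and 2 lower of 32 with a median of 0.029, led by eif2b5 (0.19), eif4h (0.14), eif4g2 (ENSDARG00000057167) with -0.14 and eif1 (0.14). Regulators had 2 higher and 5 lower of 33 with a median of 0.001, led by rictor (ENSDARG00000100867) with 0.15, mycn (-0.18) and larp4ab (-0.20). Among markers, 6 of 15 neuronal genes were higher above 40, and 6 of 10 of radial glia and astroglia and 2 of 12 of microglia and macrophages were lower. On plain library totals, neuronal markers summed to a median of 11240 CPM above 40 and 10210 up to 40. Those of microglia and macrophages summed to 523.6 and 674.4 CPM. The part of these markers in the members' values was not tested.

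The sex difference was seen on both sides of this boundary. Median shares were 2.47% in females and 2.06% in males above 40, and 2.71% and 2.20% up to 40. Fitted alone, the 20 fish above 40 gave 57 members higher in females, of 113 genes called higher in all, with a median of 0.289 and 79 members at an unadjusted p under 0.05. The 20 up to 40 gave 0 calls among members and 0 among all genes, with a median of 0.242 and 70 members at an unadjusted p under 0.05. Likewise the 20 iron libraries alone gave a median of 0.285 and the 20 saline libraries alone 0.267, with 0 members called and 82 of 83 values positive in each, and 78 and 74 members at an unadjusted p under 0.05. Over all genes, 5 were called higher in the iron libraries and 0 in the saline libraries. The share of all genes at an unadjusted p under 0.05 is not given for these fits of 20 fish. Without heterozygous saline 5 and heterozygous iron 5, 66 members were called with a median of 0.241, and all 66 were among the 73. With any one library left out the count ran from 64 to 75, and 63 genes were called in all 40 such fits. The shares of all genes called in these fits and in the fit without the 2 libraries are not given. Their member counts are therefore not set against a background.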

How the data were processed

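The authors deposited raw counts, whole numbers per Ensembl gene, for 40 libraries; all columns were used. The submitters' processing notes name the build GRCz11 and the tools featureCounts, UMI-tools, STAR and fastp. Their versions, settings and strand handling are not given in these sources. Without known strand handling, overlapping and antisense genes cannot be told apart. Symbols from a table of gene IDs matched 28988 of 32057 genes (90.4%).

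The counts were tested with edgeR 4.0.16 (R 4.3.3). filterByExpr with the 4 groups kept 19668 genes, and TMM scaled the libraries. The robust quasi-likelihood model had a mean per group, sex and home tank (31 residual degrees of freedom); sex by genotype and fish number above 40 were each added as a term (30), and the 4 bands of fish number replaced tank (32). Benjamini-Hochberg adjustment covered the whole table; calls needed an adjusted p under 0.05. SE is the size of the log2 fold change divided by the square root of F. CPM values use TMM-adjusted totals, except that summed CPM of marker lists use plain library totals. Log2 CPM has a prior count of 2. The genotype score used limma 3.58.1 on the other 39 libraries for each library. Fits were tested on simulated data. DESeq2 1.42.0, limma voom and sva 3.50.0 were among the alternatives.

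The members and lists were chosen with earlier results of these data known. Genes are named by a rule: 20 ribosomal protein genes with known roles, up to 12 called members per comparison by smallest p (the 5 smallest where under 5 were called), the 5 largest and smallest SD, members not tested, up to 4 called genes per pathway list, and the 10 genes most like the members' mean among those with mean log2 CPM 1 or more. A few of these are left out here by name, though counts and medians include them. Other genes named were chosen after their values were seen. Sex within each genotype, sex within iron or saline libraries and the library total as a term were chosen after seeing the data. No sequences were used. Counts on paralogs that share reads are uncertain.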

Additional observations from a re-analysis of the deposited data

Results flagged for a closer look

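In 76 sets of 10 values (18 members and the share of counts, in each of 4 groups), 2 held a value far from the rest of its group. Chance flags about 1 in 20 sets, so 2 of 76 is no more than chance would give. The library labelled heterozygous saline 8 had 56.4 CPM of rpl22l1, with the next highest of its group at 48.8, a gap of 0.563 of the group's range. The library labelled heterozygous saline 7 had 15.5 CPM of rps27l, with the next at 9.44, a gap of 0.535 of the range. Both fish are females, and they are the only 2 females among the 10 heterozygous saline fish. Neither rpl22l1 nor rps27l was called in the sex comparison.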

How the results depend on the processing

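No paired analysis was possible because each library is a different fish and replicate numbers only name libraries. With all fish, 1.71% of all genes were called higher for sex and 1.06% for sex in heterozygous fish. For fish number 10.6% were called lower. These shares moved between fits and are not given for every fit below. Without heterozygous iron 5, 9 genes in all were called higher for sex in heterozygous fish, against 209 with all fish. For sex, 15 of 18 alternatives gave 57 to 75 called members; the other 3 used 20 fish each and gave 0 (numbers up to 40, saline only, iron only), while medians over all 18 stayed between 0.240 and 0.289, and with 1 library left out counts ran from 64 to 75. For sex in heterozygous fish the count was 0 above 40 and 0 up to 40, 7 without heterozygous saline 5 and heterozygous iron 5, and 2 to 75 with 1 library left out. For fish number it was 16 with TMM factors made without the members and with DESeq2, 0 in males, in females and with the library total as a term, and 5 to 26 with 1 library left out. For genotype it was 4, and after saline 1, without the 2 libraries, and 0 to 1 for genotype with 1 left out. No other comparison gained a member. Signs of uncalled genes turned for fish number in females (rplp2 0.0059, rps27a 0.013, rps14 0.076) and males (rpl7l1 -0.047), and for rpl7l1 with 1 library left out (-0.017 to 0.030); for bands in males (rps2 -0.0079, rpl19 -0.035) and females (rps27.1 0.042); for iron in males (rpl18 0.0028) and above 40 (rpl22l1 -0.052, rpl21 -0.033). Members' medians turned too: iron in homozygous males 0.008, iron in heterozygous fish above 40 -0.025 and without heterozygous saline 10 -0.010, and genotype after iron -0.055 in females and -0.011 up to 40, and as low as -0.028 with 1 library left out, fish 23-40 over 2-22 -0.068 in males and -0.003 without the 2 libraries, and fish 63-95 over 41-57 0.006 without heterozygous saline 10. The cause was not tested. No scaling moved the median of all genes by over 0.1. Depth limits rps11l and rpl26.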
